A study of Mus musculus with 2 samples.

Results

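The genes for the protein components of the cytosolic ribosome were compared in mouse embryonic stem cells that lack Tcl1 and in cells of that kind given a Tcl1 vector. Members were taken by symbol, as every Rpl, Rps, Rplp and Rpsa gene named by the platform annotation, without the S6 kinase genes and without pseudogene names. This gave 77 genes of 19087 named genes, measured by 136 probes, with 34 genes on 1 probe and 43 on several. The symbols hold 49 genes of the large subunit and 28 of the small subunit. Among them are 6 paralogs with their own gene names, and Rps19bp1, which encodes a binding partner of Rps19 and no ribosomal protein, so 70 are core ribosomal protein genes. The same pattern takes 89 protein-coding genes in RefSeq, of which 12 were not analysed here.

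Each of 2 Agilent arrays carried a transformant and a disruptant in opposite dyes, Cy5 and Cy3. In the disruptants both Tcl1 copies carry a PGK-puro cassette in place of parts of exons 2 and 3. Transformants were made from such a disruptant, clone 4, with the vector CAG-Tcl1ireszeopA, in which the broadly active CAG promoter drives Tcl1, so the cassette is shared by every group. Array 1 set transformant clone 1, in Cy5, against disruptant clone 4, and array 2 set transformant clone 4, in Cy3, against disruptant clone 6, which also carried a CAG-EGFP vector, whereas no vector is stated for disruptant clone 4. Culture was in fetal calf serum and LIF, on gelatin and without feeder cells. Each array is therefore 1 pair of clones, the 2 pairs are named biological replicates by the submitters, and p-values and SDs rest on the spread between the 2 arrays. The arrays differ both in clones and in dye orientation, so that spread also holds any dye effect of a gene.

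The eukaryotic ribosome is built from a small subunit, which decodes the mRNA, and a large subunit, which joins amino acids and holds the exit tunnel and the stalk. Ribosomal protein mRNAs are among the most abundant in growing cells, and most carry a terminal pyrimidine tract through which mTORC1, a kinase complex downstream of Akt, controls their translation. Akt is the kinase that the Tcl1 protein binds and activates. An array of total RNA measures mRNA amount and not translation.

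All values are log2 ratios of transformant over disruptant, so a value below 0 means less RNA in the transformant, and a mean carries its SD over n = 2 arrays. Because the RNA came from bulk cultures, fewer cells with a transcript and less transcript per cell cannot be told apart. The scale (log10 as deposited) and the direction (Cy5 over Cy3) are the likely reading and are not stated in the sources used here. Only ratios were used, so the level of a gene, its order among genes, and whether the embryonic stem cell markers were present could not be checked. Tcl1 itself had −0.37 on array 1 and 0.17 on array 2, on a probe whose place in the gene is not given here, so it does not check the labels. Across the 30110 entries of the table the arrays correlated at a Pearson r of −0.19 after the sign of array 2 was turned, which means that the brighter dye tended to be the same on both.

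Rpl39l stood apart from every other member. It encodes a paralog of Rpl39, one of the smallest ribosomal proteins, which lines the exit tunnel of the large subunit. In mice Rpl39l is known for its expression in male germ cells, where it takes the place of Rpl39, and in embryonic stem cells. Rpl39l had −2.06 on array 1 and −2.96 on array 2, a mean of −2.51 ± 0.64 (SD, n = 2), or 5.68-fold lower in the transformants. It was the lowest member on both arrays, and its mean was the 7th lowest of the 19087 named genes. Its 2 probes had −2.74 and −1.37 on array 1, and −3.29 and −2.62 on array 2, so all 4 probe values were below −1. In limma, a linear model with a moderated variance fitted over all 30110 entries, Rpl39l had an unadjusted p of 0.0214 and an adjusted p of 1.

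Rpl39, the X-linked parent gene, did not share that value. Its 1 probe had 0.14 on array 1 and −0.76 on array 2, a mean of −0.31 ± 0.63 (SD, n = 2; limma adjusted p of 1). Rpl39l minus Rpl39 was −2.19 on array 1 and −2.20 on array 2. The ratio of the paralog to its parent was thus 4.57-fold lower in the transformants on average, and the gene values gave nearly the same difference on the 2 arrays. That closeness comes from the mean of both Rpl39l probes. Taken singly against Rpl39, one probe gave −1.51 and −1.86, and the other −2.88 and −2.53. Whether probes of either gene also bind the other's mRNA was not tested.

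**Figure D1:**
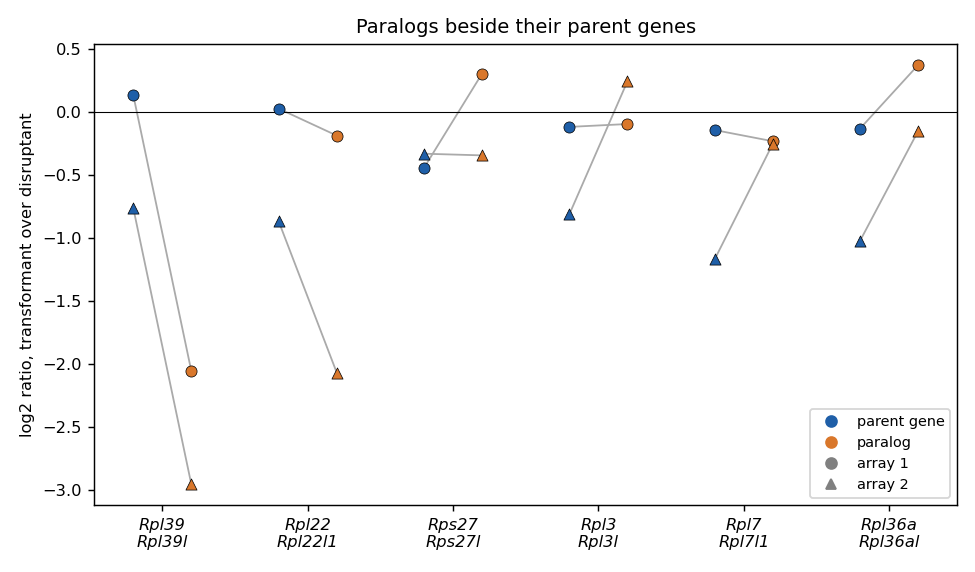
The log2 ratio, transformant over disruptant, of each paralog (orange) beside its parent gene (blue), on array 1 (circles) and array 2 (triangles), with a grey line joining the pair on each array. The lines of Rpl39 and Rpl39l run parallel, with differences of −2.19 and −2.20, whereas those of the other 5 pairs differ between arrays.

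Most of the nearest genes did not share the low value of Rpl39l. It lies on chromosome 16, and the 5 nearest measured genes on each side ranged from −0.69 to 0.57 on array 1 and from −1.10 to 0.29 on array 2. Of these 10 neighbours, 2 were below 0 on both arrays, among them Emp2 with −0.69 and −1.10. That is near the share of named genes below 0 on both, 19.4%. Genes that mark embryonic stem cells did lie low together with it. Of 8 pluripotency markers (Pou5f1, Nanog, Sox2, Klf4, Zfp42, Esrrb, Utf1 and Dppa3), 6 were below 0 on both arrays and 2, Pou5f1 and Utf1, above 0 on both. Their median was −0.76 on array 1 (−2.66 to 0.10) and −0.62 on array 2 (−2.35 to 0.50). Of 8 fibroblast markers, 3 were below 0 on both arrays and 1 above, with medians of −0.17 (−1.11 to 1.37) and 0.08 (−0.91 to 0.45). The part of either cell state in the value of Rpl39l was not tested.

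The start regions of 4 members are shown because they pair the lowest member with its parent, and set beside them the member with the second lowest mean and a stalk gene with opposite signs on the arrays. Each line gives 60 bases before and 20 bases from the RefSeq start site (GRCm38.p6), 5′ to 3′ on the strand of the gene, with a pyrimidine run at the start in capitals. The windows are chr16:10170168-10170247, plus strand, for Rpl39l, chrX:37085203-37085282, minus strand, for Rpl39, chr3:28805448-28805527, plus strand, for Rpl22l1, and chr7:141447591-141447670, plus strand, for Rplp2.
Rpl39l: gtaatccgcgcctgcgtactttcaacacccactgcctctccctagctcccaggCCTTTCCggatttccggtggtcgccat
Rpl39: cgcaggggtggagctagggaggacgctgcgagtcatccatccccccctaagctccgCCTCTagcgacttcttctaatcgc
Rpl22l1: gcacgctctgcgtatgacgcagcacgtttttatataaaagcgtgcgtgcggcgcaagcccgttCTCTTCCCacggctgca
Rplp2: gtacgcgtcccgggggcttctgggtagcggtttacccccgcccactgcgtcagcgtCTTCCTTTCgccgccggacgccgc
Rpl39l, which was low on both arrays, and Rpl39, which was not, both have such a run at the start. The start regions of Rpl22, the parent of Rpl22l1, and of Rpl4 were also read, are not printed, and have no such run under the rule given next. In Rpl4 a stretch of C and T begins more than 10 bases before the RefSeq start and ends nearer to it, so it was not counted. Whether these cells start the Rpl4 mRNA at the RefSeq site was not tested.

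A run was counted where a C followed by at least 4 letters, each C or T, began within 10 bases of the start. It was found in 34 of the 63 members with a RefSeq window (54%), against 30.8% of all 27025 genes with a window. Members with the run had medians of −0.08 on array 1 and −0.36 on array 2, and the 29 members without it had −0.08 and −0.23. The letters CCGGAAG, part of the site bound by ETS family factors, were found on either strand in 25 members (39.7%) against 9.12% of all genes, within the 250 bases before and 50 after the start. The 25 members with CCGGAAG had medians of −0.09 and −0.35, and the other 38 had −0.07 and −0.24. Mitochondrial ribosomal protein genes had the run in 42% and CCGGAAG in 36.2% of 69 windows. Both motifs were thus more frequent in the cytosolic members than in all genes, and were also frequent in the mitochondrial set. Medians with and without either motif lay close together on array 1 and were lower with the motif on array 2, a difference that was not tested. A match describes letters and shows no binding, and the pyrimidine run and CCGGAAG may overlap in a window.

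As a family the ribosomal protein genes lay below 0 on array 2 and near 0 on array 1. On array 2 the 77 genes had a median of −0.31, and 59 of them were below 0 (76.6%, against 44.1% of all entries and 47.9% of named genes). On array 1 the median was −0.08 with 42 below 0 (54.5%, against 45.5% of all entries and 47.1% of named genes). The mean over arrays had a median of −0.24 over the members, where all named genes had 0. The middle of the members ran from −0.31 to 0.16 on array 1 and from −0.76 to −0.06 on array 2 (quartiles), and the extremes were −2.06 and 0.55, and −2.96 and 0.63. The family was thus spread more widely, and lower, on array 2. All named genes were also spread more widely there, with quartiles of −0.17 and 0.22 on array 1 and −0.29 and 0.21 on array 2. Without Rpl39l the members' median of the mean over arrays was −0.24, and over the 70 core genes it was −0.26.

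On both arrays together, 27 of the 77 genes were below 0 (35.1%, against 17.0% of all entries and 19.4% of named genes). Of the rest 3 were above 0 on both (3.90%, against 21.0% of all entries and 22.1% of named genes). These counts use the mean of a gene's probes. Rpl27a, Rpl37 and Rps4x count as below 0 on both arrays, although no single probe of theirs was. Rpl39l alone was at least 2-fold lower on each array (1 of 77, against 0.193% of all entries and 0.262% of named genes). None was at least 2-fold higher on each (0 of 77, against 0.0166% and 0.0157%). limma called 0 of the 77 genes at an adjusted p under 0.05 (0% of all entries were called), and 4 had an unadjusted p under 0.05, all with a mean below 0 (3.15% of all entries and 3.38% of named genes had one in either direction, and 1.68% and 1.93% on the lower side). These 4 were Rpl39l, Rps20, Rps23 and Rps27. With 2 arrays the smallest two-sided p of an exact sign-flip test is 0.5.

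**Figure D2:**
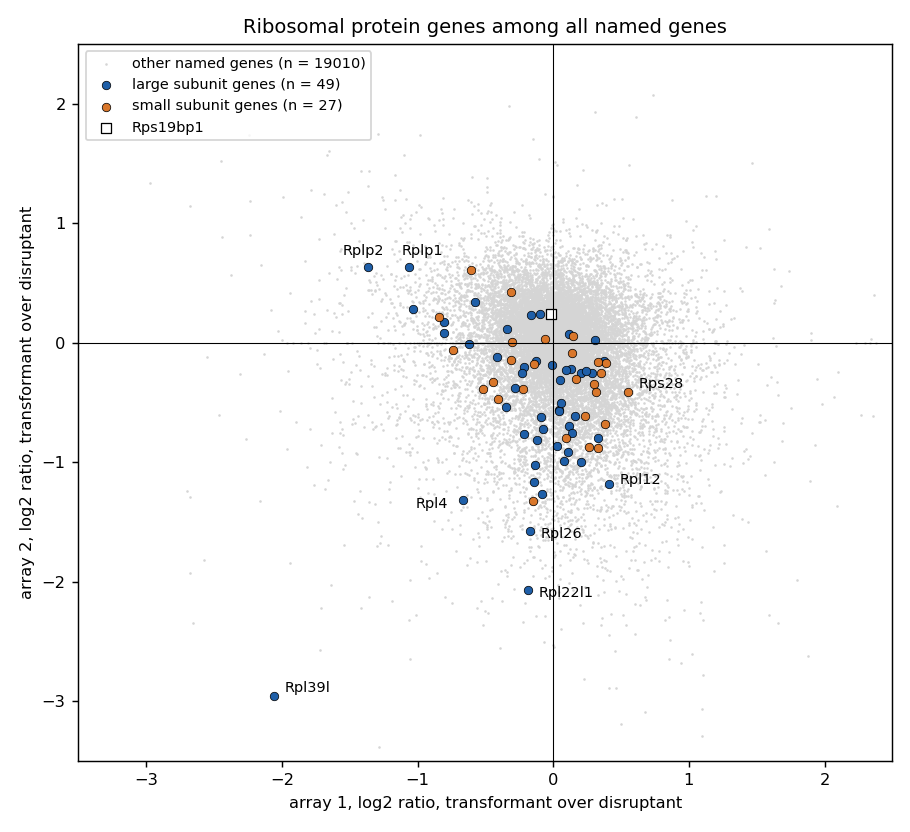
Log2 ratio of transformant over disruptant on array 1 (horizontal) and array 2 (vertical) for 49 large subunit genes (blue), 27 small subunit genes (orange), Rps19bp1 (square) and 19010 other named genes (grey), 14 of which lie outside the axes. Among the members Rpl39l sits alone at the lower left, where some other named genes lie too. Most members spread downward from the centre, and the stalk genes Rplp1 and Rplp2 lie in the upper left, where the arrays disagree.

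The large subunit, with 49 of the 77 members, held most of the lowest values on each array. Its 49 genes had medians of −0.09 on array 1 and −0.38 on array 2, and 19 were below 0 on both. The 27 small subunit genes, Rps19bp1 left out, had 0.09 and −0.31, and 8 were below 0 on both. A difference between the subunits was not tested. Of the 4 genes at least 2-fold lower on array 1 and the 9 on array 2 (2.40% and 4.98% of all entries, 2.09% and 5.45% of named genes), all but Rps7, which reached that size on array 2, belonged to the large subunit. Of the 4 on array 1, Rplp1, Rplp2 and Rpl27 were above 0 on array 2. No member was at least 2-fold higher on either array (0 of 77 on each), where 1.99% of all entries and 1.38% of named genes were on array 1, and 0.804% and 0.566% on array 2, shares so small that 0 of 77 lies near them.

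Among large subunit genes with a value below 0 on both arrays, Rpl4 came after Rpl39l by the array value nearer to 0. Rpl4, whose protein reaches into the exit tunnel, had −0.67 on array 1 and −1.32 on array 2, a mean of −0.99 ± 0.46 or 1.99-fold lower (limma unadjusted p of 0.0651, adjusted p of 1). Rpl4 ranked 9th from the lowest among the members on array 1 and 5th on array 2. Rpl41, one of the shortest proteins known, which bridges the subunits, had −0.35 and −0.54 (−0.44 ± 0.13). Rpl38, which in mouse embryos is required for the translation of certain Hox mRNAs, had −0.28 and −0.38 (−0.33 ± 0.07). For Rpl41 and Rpl38 the 2 arrays lay closer together than for Rpl4, at a smaller size.

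Other large subunit genes reached a 2-fold lower value on array 2 alone. They are described after their values were seen, and Rpl22l1 and Rpl12, which also reached that size there, stand with the paralogs and the stalk. Rpl26, whose protein in human cells also binds the mRNA of p53, had −0.17 on array 1 and −1.58 on array 2. Rpl5, which with Rpl11 and 5S ribosomal RNA can bind Mdm2, had −0.08 and −1.27, while Rpl11 had 0.09 and −0.23. Both genes of that complex lay below 0 on array 2, Rpl5 further than Rpl11. Rpl7 had −0.14 and −1.17 and the X-linked Rpl36a −0.13 and −1.02. Rpl26, Rpl5, Rpl7 and Rpl36a had smaller values on array 1, so their means rest mainly on array 2.

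Among small subunit genes below 0 on both arrays, Rps20 and Rps23 were the lowest by the array value nearer to 0. By the mean Rps7 was the lowest, with −0.15 on array 1 and −1.33 on array 2 (−0.74 ± 0.83). Rps20, a protein of the subunit's head, had −0.41 on array 1 and −0.47 on array 2, a mean of −0.44 ± 0.05 or 1.36-fold lower (limma unadjusted p of 0.0336, adjusted p of 1). Rps23, which lies at the decoding centre, had −0.52 and −0.39, a mean of −0.45 ± 0.09 (unadjusted p of 0.0390, adjusted p of 1). Rps27, a zinc finger protein, had −0.44 and −0.33 (−0.39 ± 0.08). The SDs of these 3 genes were 0.05 to 0.09, and Rps23 and Rps27 were lower on array 1 than on array 2, opposite to the family as a whole. For Rps20 the small SD comes from the mean of its 2 probes. They had −0.22 and −0.59 on array 1, and −0.59 and −0.35 on array 2, all below 0. The 3 genes above 0 on both arrays had small values. Rpl14 had 0.12 and 0.07, Rps15 had 0.15 and 0.05, and Rpl36 had 0.31 and 0.02.

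**Figure D3:**
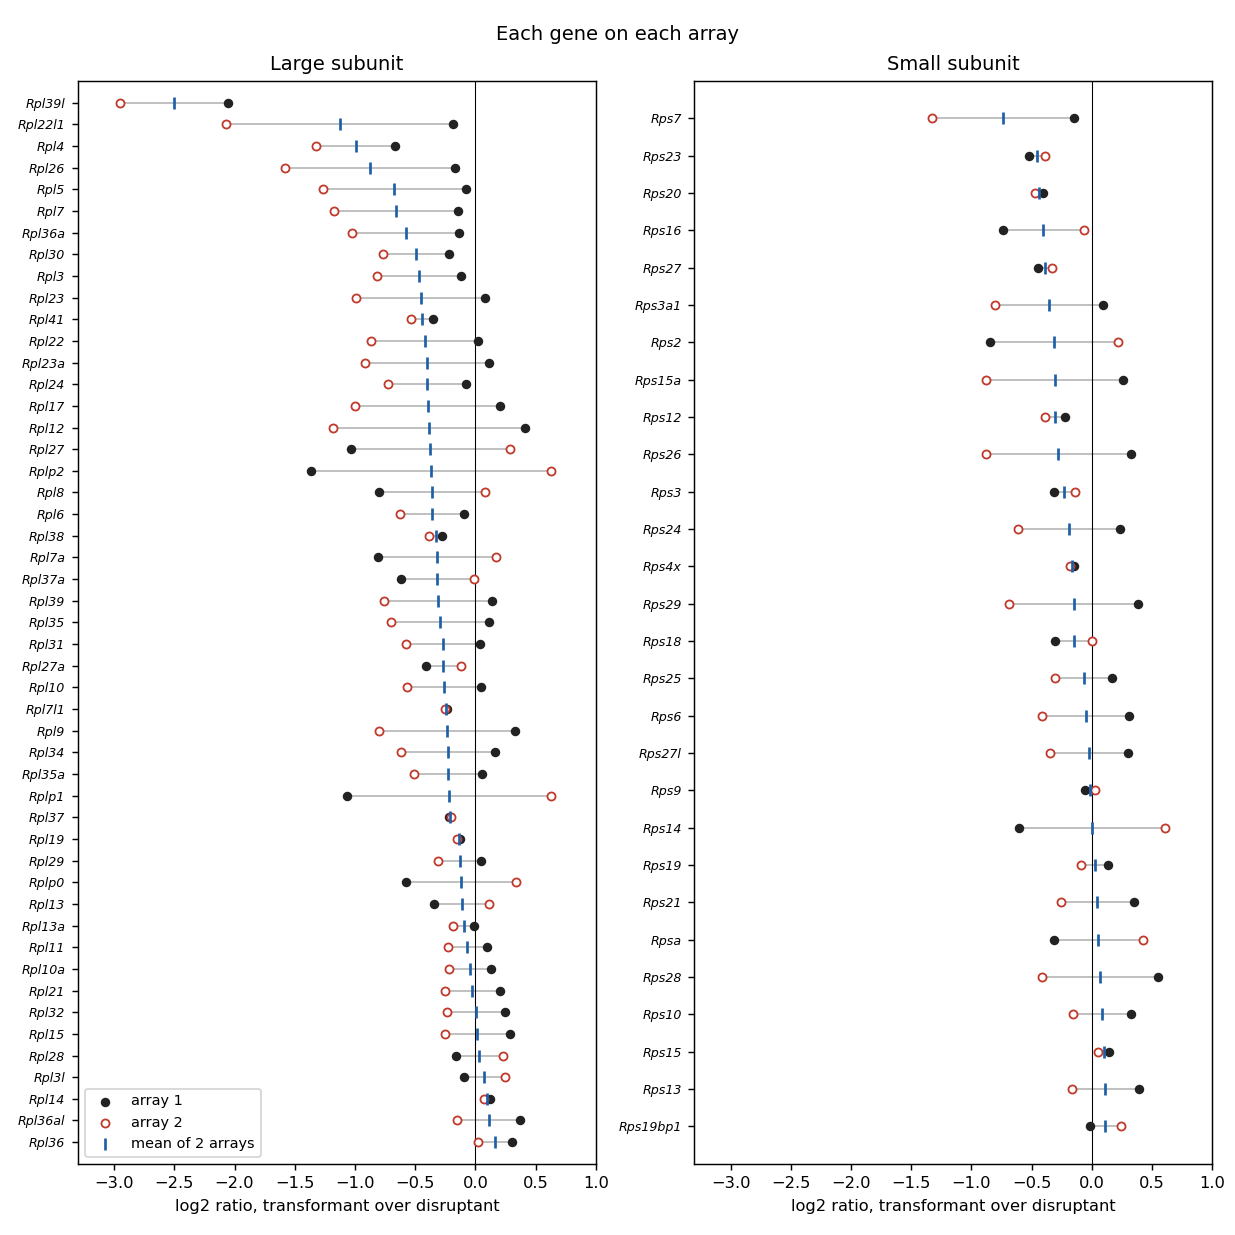
Log2 ratio of each gene on array 1 (filled) and array 2 (open), with the mean (blue tick), for the large subunit (left) and the small subunit (right), ordered by mean. Rpl39l and Rpl22l1 reach furthest below 0, and for most genes the open circle lies left of the filled one, whereas for Rplp1, Rplp2, Rps14 and Rps2 it lies right.

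The genes of the stalk gave opposite signs on the arrays. The stalk, made of Rplp0, Rplp1 and Rplp2, recruits the elongation factors to the large subunit. Rplp1 had −1.06 on array 1 and 0.63 on array 2, and Rplp2 had −1.36 and 0.63. Rplp0, averaged over 3 probes, had −0.58 and 0.34. Since the transformant carried Cy5 on array 1 and Cy3 on array 2, Cy3 was the brighter dye on both arrays for all 3. For Rplp0 this holds for the mean of its 3 probes. A probe of Rplp0 had 0.14 on array 1 and −0.04 on array 2, so Cy5 was brighter there on both. The means over arrays were −0.22 ± 1.20 for Rplp1, −0.37 ± 1.41 for Rplp2 and −0.12 ± 0.65 for Rplp0, each smaller than its SD.

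The value of 0.63 on array 2 was identical for 4 member probes, one each of Rplp0, Rplp1, Rplp2 and Rps2. They share the deposited number −0.19, which 34 of all 43790 spots carry on that array. The probe of Rplp0 also shared its array 1 value, −0.448 as deposited, with other spots, and 4 spots in all carry both numbers. Channel intensities were not used here, so whether bright spots reached a limit of the scanner was not tested.

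In 47 of the 77 genes the same dye was brighter on both arrays (61.0%, against 53.4% of all entries and 55.4% of named genes). Cy5 was brighter on both in 32 (41.6%, against 26.2% of all entries and 28.2% of named genes), and Cy3 in 15 (19.5%, against 27.3% and 27.2%). The 15 were the 3 stalk genes, Rpsa, Rps2, Rps9, Rps14, Rps18, Rpl3l, Rpl7a, Rpl8, Rpl13, Rpl27, Rpl28 and Rps19bp1. Among the members with the largest opposite values, Rps14 had −0.61 on array 1 and 0.61 on array 2, Rps28 had 0.55 and −0.41, and Rpl12, at the base of the stalk, had 0.41 and −1.18. Rpsa, also known as a laminin receptor, had −0.31 and 0.42. Across the 77 members the arrays had a Pearson r of −0.045 and a Spearman rho of −0.29, a description over genes that share both arrays, against −0.14 and −0.18 over all named genes. Without Rpl39l, which was low on both arrays, the 76 other members had −0.39 and −0.34, and the 70 core genes −0.46 and −0.38. Mitochondrial ribosomal protein genes had 0.30 and 0.28. The Pearson value thus rests on whether Rpl39l is counted, and how far labelling or hybridization took part was not tested.

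None of the other paralogs was as low as Rpl39l on either array, though Rpl22l1 and Rpl7l1 were below 0 on both. Rpl22l1, the paralog of Rpl22, had −0.19 on array 1 and −2.07 on array 2, a mean of −1.13 ± 1.33, and Rpl22 had 0.03 and −0.87. The difference between them was −0.21 and −1.20, so Rpl22l1 lay below its parent on both arrays but by unequal amounts. In mice the Rpl22 protein is known to restrain Rpl22l1. Rpl7l1 had −0.23 and −0.25 against −0.14 and −1.17 for Rpl7. Rpl36al had 0.37 and −0.15, above Rpl36a on both arrays by 0.50 and 0.87. Rps27l, a target of p53, had 0.30 and −0.35 against −0.44 and −0.33 for Rps27. Rpl3l, the paralog of striated muscle, had −0.10 and 0.24, against −0.12 and −0.81 for Rpl3. Of the 6 paralogs, Rpl39l and Rpl22l1 were lower than their parents on both arrays, Rpl36al and Rpl3l were higher on both, Rpl3l by 0.02 and 1.06, and the other two were mixed. Many ribosomal protein genes have near-identical processed copies in the genome, so the share of a probe's signal from each copy is uncertain.

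Members with a role in signalling or disease, or on the X chromosome, were named after their values were seen. Rps6, the substrate of the S6 kinases downstream of Akt and mTORC1, had 0.31 on array 1 and −0.42 on array 2. Rps19, the first gene found in human Diamond-Blackfan anaemia, had 0.14 and −0.09. Both had opposite signs on the arrays and means near 0, of −0.05 ± 0.51 and 0.02 ± 0.16. The 4 X-linked members, Rpl10, Rpl36a, Rpl39 and Rps4x, had medians of −0.04 and −0.66, and all 4 were below 0 on array 2. On that array 75.3% of the 73 autosomal members and 47.9% of named genes were below 0, so 4 genes cannot be told from the rest of the family. Rpl10, needed for subunit joining, had 0.04 and −0.57, and Rps4x had −0.14 and −0.18. Fau, which encodes Rps30 fused to a ubiquitin-like protein and is no member by symbol, had −0.12 and 0.09.

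Probes of the same gene did not always share a sign. Of the 43 genes with several probes, 18 had probes of opposite sign on array 1, 14 on array 2 and 16 in the mean over arrays. The median range between probes was 0.28 on array 1 and 0.25 on array 2, and the widest ranges were 1.62, for Rplp0, and 1.68, for Rpl27a. Rpl27a had probes at 0.12 and −0.94 on array 1, and at −0.96 and 0.72 on array 2. Rpl30 had probes at 0.05 and −1.58 on array 2, and Rps4x at 0.53 and −0.90. By contrast the 3 probes of Rpl7 lay between −1.20 and −1.16 on array 2, and the 3 of Rpl36a between −1.10 and −0.90. Gene values that rest on a wide pair of probes, among them Rps4x and Rpl30, are the least certain.

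**Figure D4:**
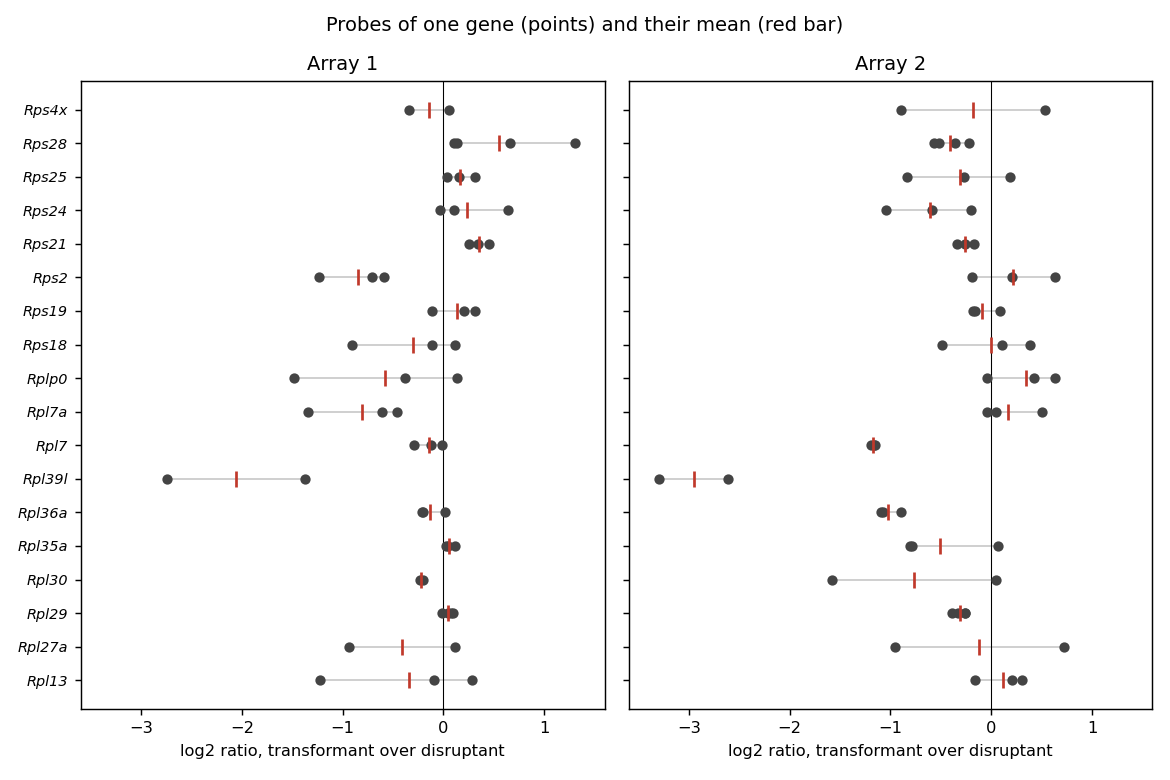
Log2 ratio of every probe (points) and their mean (red bar) for the 18 genes with at least 3 probes or a probe range of 1 or more, on array 1 (left) and array 2 (right). Both probes of Rpl39l lie below −1 on each array, the probes of Rpl7 coincide on array 2, and those of Rpl27a and Rps4x fall on both sides of 0.

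Mitochondrial ribosomal protein genes, which build the separate ribosome of that organelle, gave a different picture. The 78 genes had medians of −0.07 on array 1 and −0.11 on array 2, and 42 were below 0 on array 2, where 47.9% of named genes were. Of them 26 were below 0 on both arrays and 19 above (33.3% and 24.4%, against 19.4% and 22.1% of named genes). The cytosolic set had 27 and 3 of 77. The cytosolic and mitochondrial counts thus differed in the genes above 0 on both, a difference that was not tested. By the array value nearer to 0 the lowest were Mrps15 (−1.27 and −0.51) and Mrpl39 (−0.51 and −0.69), and the highest Mrpl53 (0.48 and 0.50) and Mrpl34 (0.48 and 0.30). None passed limma after adjustment (0 of 78), and 3 had an unadjusted p under 0.05, near the 3.15% of all entries and 3.38% of named genes.

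Other genes whose mRNAs carry the pyrimidine tract, or that serve elongation and initiation, also lay low on array 2. Of 22 symbols listed 19 were measured, with medians of −0.12 on array 1 and −0.61 on array 2. Of the 19, 9 were below 0 on both and 0 above on both (47.4% and 0%, against 19.4% and 22.1% of named genes). Eif4b, an initiation factor that is phosphorylated by the S6 kinases, had −0.66 and −0.68 (−0.67 ± 0.01, unadjusted p of 0.0142, adjusted p of 1 in limma), nearly equal on the 2 arrays. Eef1a1, which brings the aminoacyl tRNA to the ribosome, had −0.34 and −0.84. limma called 0 of the 19, and Eif4b was the only 1 with an unadjusted p under 0.05, where 3.38% of named genes had one. Vim belongs both to this list and to the fibroblast markers.

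Genes of ribosome assembly and surveillance had medians of −0.11 and −0.46. Of 16 genes 6 lay below 0 on each array and 0 above on each (37.5% and 0%, against 19.4% and 22.1% of named genes). Nmd3, the export adaptor of the large subunit, had −0.55 and −1.70, and Sbds, which helps to release Eif6 from that subunit, had −0.12 and −0.45. Growth regulators had medians of 0.01 and −0.08, where 5 of 20 lay below on each and 2 above. Mlst8, a subunit of both mTOR complexes, had 0.65 and 0.38 and Tsc2, an inhibitor of mTORC1, had 0.13 and 0.0093. On the lower side Rictor, the defining subunit of mTORC2, had −0.27 and −0.10, and Max, the partner of Myc, −0.09 and −0.42. limma called 0 of these genes, and none had an unadjusted p under 0.05 (0 of 16 and 0 of 20, against 3.38% of named genes). In both lists the median was lower on array 2 than on array 1.

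**Figure D5:**
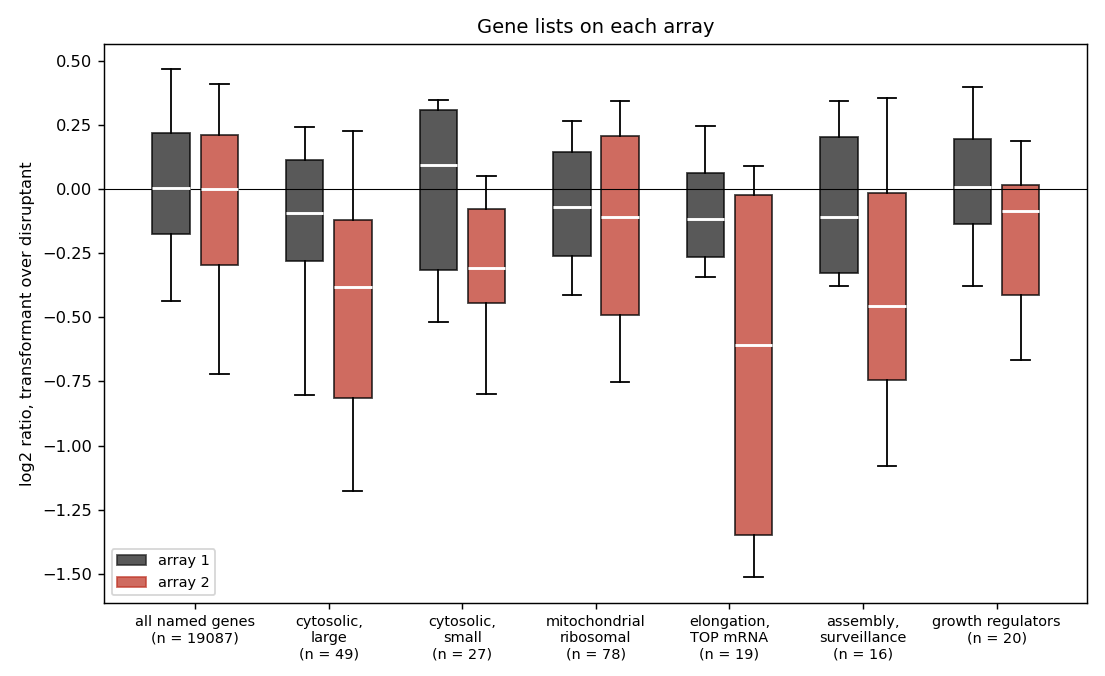
Log2 ratios of all named genes, of the cytosolic ribosomal protein genes by subunit and of 4 related lists, on array 1 (dark) and array 2 (red). Boxes span the quartiles with the median in white and whiskers reach from the 10th to the 90th percentile over genes. The medians of the cytosolic genes on array 2, −0.38 and −0.31, lie below 0, as do those of the elongation list at −0.61 and the assembly list at −0.46, and the mitochondrial list lies at −0.11.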

How the data were processed

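The authors deposited 1 log10 ratio per spot and array (43790 spots). Per the submitters' processing notes they used Agilent Feature Extraction, and no version, background correction or dye normalization is given in the sources used here. The log10 scale and the direction are inferred. The medians were 0 and 0.

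Ratios were multiplied by 3.32, array 2 was turned, and probes were averaged per symbol of GEO's platform annotation. Spots not listed there and below −1 on both arrays (725) were left out, which gave 30110 entries, 19087 of them named. All 77 member IDs matched RefSeq (GRCm38.p6). The mean was tested against 0 with limma 3.58.1 in R 4.3.3 (two-sided, Benjamini-Hochberg over all entries, threshold 0.05), with 1 residual and 0.861 prior degrees of freedom. A run on simulated data had to recover planted log2 changes on average. It set no requirement on the p-values, so it does not vouch for them. Depth has no counterpart here, and 2 arrays limit precision.

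Members, lists and the naming rule were chosen with earlier results of these data known. The rule named Rpl39l, Rpl39, the stalk genes, Rpsa, the paralogs, Fau, the 8 lowest and 8 highest members of one sign ranked by the value nearer to 0 (3 were positive), 5 of opposite sign, and 2 at each end of each other list. Protein sequences were not compared. Alternatives were single arrays, centring, exact zeros, probe summaries, spots, orientation, scale, variance model, thresholds and members.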

Additional observations from a re-analysis of the deposited data

How the results depend on the processing

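Each ratio pairs a transformant with a disruptant on the same array. No further pairing was possible because each array is the only one with its number. The 2 other centrings, exact zeros left out, the median probe, listed probes alone and all spots kept changed no count and left the difference of Rpl39l from Rpl39 at −2.19, and the median moved by less than its SD between arrays. With each probe by itself 43 of 136 were below 0 on both arrays, 8 above and 2 at least 2-fold the same way. With 1 array left out the median of the members ranged from −0.31 to −0.077, the count below 0 from 42 to 59, above 0 from 18 to 35, at 2-fold from 4 to 9, and the difference of Rpl39l from Rpl39 from −2.20 to −2.19. With array 2 not turned, where a difference shared by both pairs cancels by construction, the median was 0.24, 15 were below 0 and 32 above, 0 were at 2-fold, and Rpl39l minus Rpl39 was 0.0012. With the opposite reading every sign turned, so the median was 0.24, the counts 3 below and 27 above, and that difference 2.19. Read as log2, the median was −0.073, the difference −0.66 and 0 genes reached 2-fold. At an unadjusted p 4 genes passed in limma instead of 0, and at 1.5-fold 2 genes did the same on both arrays. Leaving out Rpl39l, or the 4 probes at one shared value, was chosen after seeing the data and left the median at −0.24. Without the 4 probes 75 genes were left, since Rplp1 and Rplp2 have no other, the counts below 0, above 0 and at 2-fold on both arrays were 27, 3 and 1, and the mean of Rplp0 went from −0.12 to 0.04. Intensities over background were not used, so dim probes could not be set apart.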
